A study of Mus musculus with 24 samples.

Results

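The 10 genes described here are commonly used as markers of neural tissue or belong to the Zic family: Pax6, Sox1, Zic2, Zic5, Olig2 and Lmx1b, which encode transcription factors, Nes, Tubb3 and Nefh, which encode cytoskeletal proteins, and Cdk5r2, which encodes an activator of a neuronal kinase. They were taken by exact gene symbol from 4 deposited tables of gene-level RNA sequencing values, where all 10 were found among 35742 genes. The cells were V6.5 mouse embryonic stem (mES) cells, and every group carried a degron on BRD2, a tag through which a protein is degraded when an auxin is added. BRD2 is a chromatin reader of the BET family. Each of 4 stages was sampled with and without auxin, in 3 libraries per group and 24 libraries in all.

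The stages were mES cells, kept in medium with LIF and the kinase inhibitors of 2i medium, and embryoid bodies (EBs), differentiating aggregates formed without LIF, on day 2 (EBd2), day 3 (EBd3) and day 4 (EBd4). All 8 groups received doxycycline (Dox, 1 µg/ml) for 18 h. The 4 groups called IAA here also received indole-3-acetic acid, an auxin (IAA, 500 µM), for 24 h, and the 4 groups without it are called Dox, although another label field calls them untreated. No group without doxycycline or without the degron was analysed here. The labels give neither the number of clones behind the degron line, nor the time within EB culture at which IAA was added, nor whether the 3 libraries of a group came from separate cultures. All p-values therefore measure the spread between these libraries, which may be technical. Every library is labelled with the cell type embryonic stem cells, the EBs included.

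By way of background, Sox1 and Pax6 are switched on as the ectoderm becomes neural plate, and nestin is the intermediate filament of the dividing progenitors that follow. Tubb3, a neuron-enriched tubulin, and Nefh, the heavy neurofilament subunit, belong to the cytoskeleton of neurons, and Cdk5r2 (p39) activates Cdk5 there. Olig2 specifies motor neuron and oligodendrocyte precursors in the ventral neural tube, and Lmx1b acts in midbrain dopaminergic neurons, the isthmic organizer and limb patterning. Zic2 and Zic5 are zinc finger factors of the neural folds, and Zic2 also acts before that, in the epiblast and at enhancers of pluripotent cells. EBs without LIF leave naive pluripotency, pass through an epiblast-like state and then form derivatives of the germ layers.

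Zic2 and Zic5 are neighbours on chromosome 14. Zic2 (ENSMUSG00000061524) lies on the plus strand at chr14:122475435-122479852 and Zic5 (ENSMUSG00000041703) on the minus strand at chr14:122456795-122465677, and their start sites are 9758 bases apart (build mm10, gene models of GENCODE M21). The other 8 genes are spread over 6 chromosomes: Pax6 (ENSMUSG00000027168, chr2:105668900-105697364, plus strand), Lmx1b (ENSMUSG00000038765, chr2:33560965-33640511, minus strand), Sox1 (ENSMUSG00000096014, chr8:12395295-12400126, plus strand), Tubb3 (ENSMUSG00000062380, chr8:123411424-123422015, plus strand), Nes (ENSMUSG00000004891, chr3:87971078-87980451, plus strand), Olig2 (ENSMUSG00000039830, chr16:91225457-91228677, plus strand), Nefh (ENSMUSG00000020396, chr11:4938754-4948064, minus strand) and Cdk5r2 (ENSMUSG00000090071, chr1:74854934-74857732, plus strand). Sox1 shares 86 exonic bases with the miRNA gene Gm25239 on its strand, and no other member shares exonic bases with another gene.

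Promoter sequences from RefSeq (build GRCm38) were matched for 8 of the 10 genes, Pax6 with 2 start sites. Those of 4 genes are printed 5′ to 3′ on the strand of the gene, up to the base before the annotated start: those of Pax6 and Cdk5r2, whose RNA rose most with IAA in EBd2, of Nes, the progenitor filament, and of Zic5. Capitals mark a match to CCAAT (in Pax6 and Cdk5r2, where ATTGG is its reverse complement) or to GGGCGG (in Nes, where CCGCCC is its reverse complement). The Zic5 stretch held none of the 6 motifs searched. The Pax6 stretch is at chr2:105668646-105668895 (plus strand), that of Cdk5r2 at chr1:74854779-74854933 (plus strand), that of Nes at chr3:87970843-87971077 (plus strand) and that of Zic5 at chr14:122465678-122465908 (minus strand).
Pax6: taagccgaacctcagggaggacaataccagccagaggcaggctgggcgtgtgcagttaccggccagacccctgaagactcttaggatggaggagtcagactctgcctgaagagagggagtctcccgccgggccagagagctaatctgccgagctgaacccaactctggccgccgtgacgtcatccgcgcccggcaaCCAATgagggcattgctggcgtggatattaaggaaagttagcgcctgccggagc
Cdk5r2: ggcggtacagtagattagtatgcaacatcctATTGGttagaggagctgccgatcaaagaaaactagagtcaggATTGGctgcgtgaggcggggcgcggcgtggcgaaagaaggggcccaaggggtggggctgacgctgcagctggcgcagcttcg
Nes: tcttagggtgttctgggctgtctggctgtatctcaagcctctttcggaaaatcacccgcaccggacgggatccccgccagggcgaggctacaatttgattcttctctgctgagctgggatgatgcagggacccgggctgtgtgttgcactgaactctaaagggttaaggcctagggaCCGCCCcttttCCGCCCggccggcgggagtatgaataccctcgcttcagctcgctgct
Zic5: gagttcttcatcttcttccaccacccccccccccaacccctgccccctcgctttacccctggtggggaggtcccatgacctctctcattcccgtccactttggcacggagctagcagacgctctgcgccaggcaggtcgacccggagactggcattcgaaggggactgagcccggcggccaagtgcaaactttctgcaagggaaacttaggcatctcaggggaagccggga

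In the 250 bases before each of the 9 matched start sites, 6 motifs were searched on both strands. CCAAT was present in 6 of the 9, against 33.8% of all 32851 mouse promoters of that length, and GGGCGG in 5 of 9, against 32.7%. TATAAA was found once, before Olig2 (12.4% of all promoters), and CATTGT, the core bound by SOX factors, in 2 (10.7%). Neither CCTGCTG, a core of ZIC sites (8.44%), nor TTCAGCACC, the left part of the RE1 element bound by REST (0.301%), was found in these windows. The 9 windows held 11 to 29 CG dinucleotides, where the median promoter held 6. These matches describe letters in the windows and were not tied to the RNA values by any test.

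Recovered reads per library ranged from 7819522 to 15732767, and in EBd4 every IAA library was deeper (9007143 to 10598075) than every Dox library (7941180 to 8120480). Brd2 RNA was higher with IAA in all 4 stages (log2 fold change 0.87 in mES, 0.65 in EBd2, 0.38 in EBd3 and 0.48 in EBd4), and since the degron acts on the protein, RNA does not check its loss. Stage labels were checked with marker genes. The summed naive pluripotency markers lay at 46618 to 48735 normalized counts in the mES Dox libraries and at 2837 to 3233 in EBd2 Dox, while those of the formative epiblast lay at 2714 to 2877 in mES Dox and at 35120 to 36067 in EBd2 Dox. The library EBd2 Dox 3 stood apart from the other two of its group (chi-square per degree of freedom 4.49 and 3.77, against 1.29 between those), and the 3 EBd4 IAA libraries differed widely among themselves (2.03 to 5.35). The mES libraries were closer, at 1.12 to 1.27 with Dox and 1.18 to 1.48 with IAA. Tests in mES thus rest on a smaller spread between libraries than those in EBd4. In bulk RNA, fewer cells of a type and less RNA per cell cannot be told apart, which holds for every value below.

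The 10 genes did not share a common course over the stages. Values are size-factor-normalized counts, in which the authors divided each library's counts by 1 factor. With Dox alone, Pax6, Zic2 and Zic5 were lowest in mES and far higher in all EB stages, whereas Sox1, Olig2, Lmx1b and Tubb3 were highest in mES. Nes was highest in EBd4, Nefh in EBd2, and Cdk5r2 was at about the same level in EBd3 and EBd4. The ratio of the highest to the lowest of the 8 group means was 72.3 for Pax6, 16.2 for Zic2, 12.9 for Lmx1b, 11.2 for Olig2, 11.1 for Nefh, 9.36 for Zic5, 6.77 for Tubb3, 3.55 for Cdk5r2, 3.27 for Sox1 and 2.89 for Nes. The name neural markers therefore goes against their levels in one respect: 4 of the 10 had their highest group mean in undifferentiated mES cells with IAA (Sox1, Tubb3, Olig2 and Lmx1b). Hence they are called by gene name below, and no neural cell type is assigned to any stage.

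**Figure D1:**
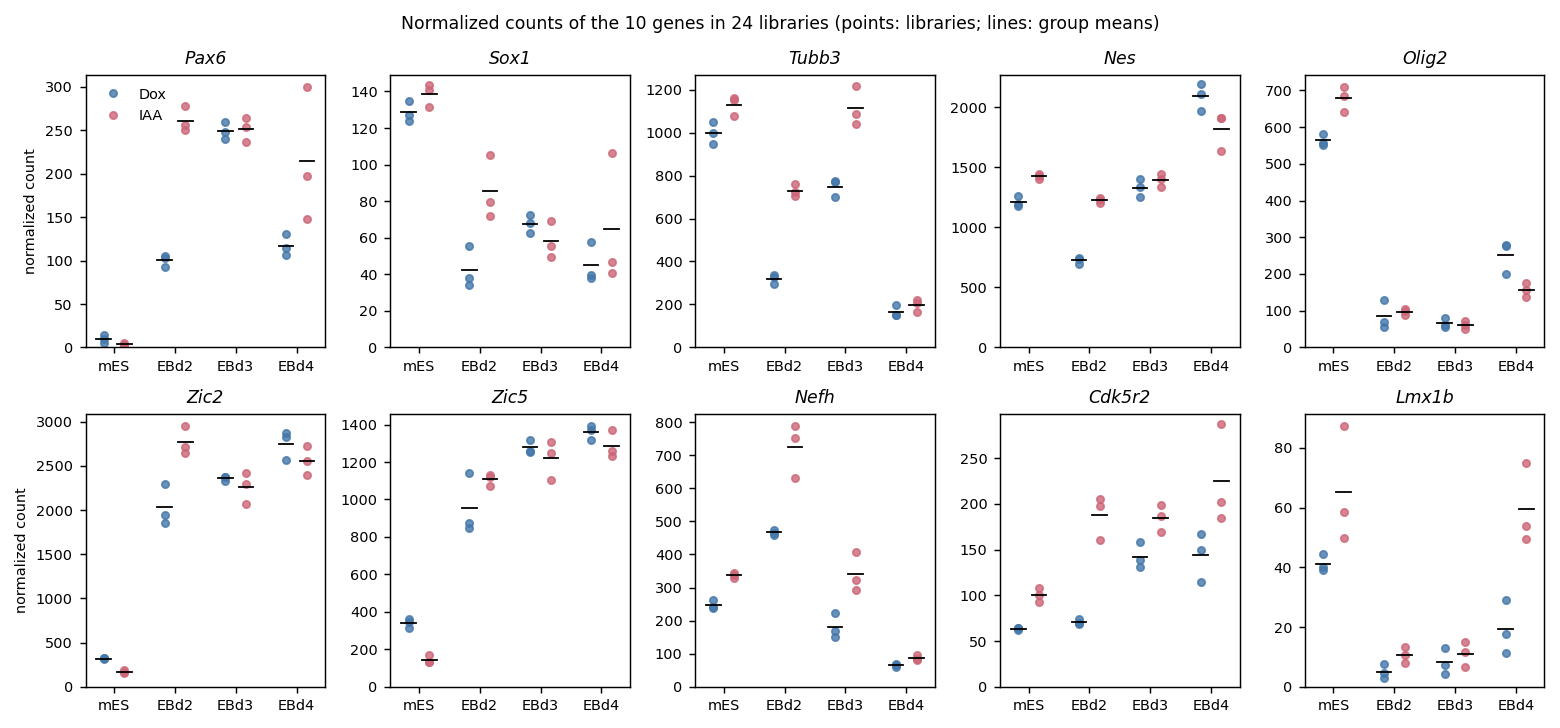
Normalized counts (vertical axes, each starting at 0 with its own scale) of the 10 genes in mES cells and in EBs on day 2, 3 and 4, with Dox (blue) or IAA (red); each point is 1 library and each line a group mean of 3. Pax6, Zic2 and Zic5 are lowest in mES, and all genes but Olig2 and Zic5 show every IAA library above every Dox library in EBd2. The share of all measured genes with such a separation was not computed.

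Divided by exonic length, Tubb3 was the most abundant of the 10 in mES with Dox, at 535 normalized counts per kilobase, followed by Olig2 at 223 and Nes at 189. Zic2 came next at 111 per kilobase, and Pax6 was the lowest at 0.827. In EBd4 with Dox the order was another one, with Zic2 at 956 per kilobase, Nes at 326 and Zic5 at 278, and with Sox1 at 9.38 and Lmx1b at 3.96. In none of the 8 groups did Pax6 or Sox1 exceed 28.7 per kilobase, while Zic2 was at 59.5 or more in each.

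With IAA, the number of the 10 genes called higher or lower differed between stages. In mES cells 6 of the 10 genes were higher with IAA and 3 were lower (adjusted p below 0.05, limma over all genes tested), against 17.3% and 20.1% of the 20865 genes tested, or 37.5% in either direction. In EBd2 the same test called 8 of 10 higher and none lower, where 13.4% of 22076 genes were called higher and 16.7% lower, 30.1% in all. In EBd3 it called 3 higher and none lower (4.22% and 6.32% of 21304 genes, 10.5% in all), and in EBd4 3 higher and 1 lower (4.69% and 5.57% of 21170 genes, 10.3% in all). The median log2 fold change of the 10 was 0.21 in mES, 0.88 in EBd2, 0.04 in EBd3 and 0.31 in EBd4, beside medians over all genes tested of -0.01, -0.04, -0.01 and -0.01. All fold changes are limma estimates on log2 of the normalized count plus 1, with their standard error (SE), and are given as IAA over Dox unless said otherwise.

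**Figure D2:**
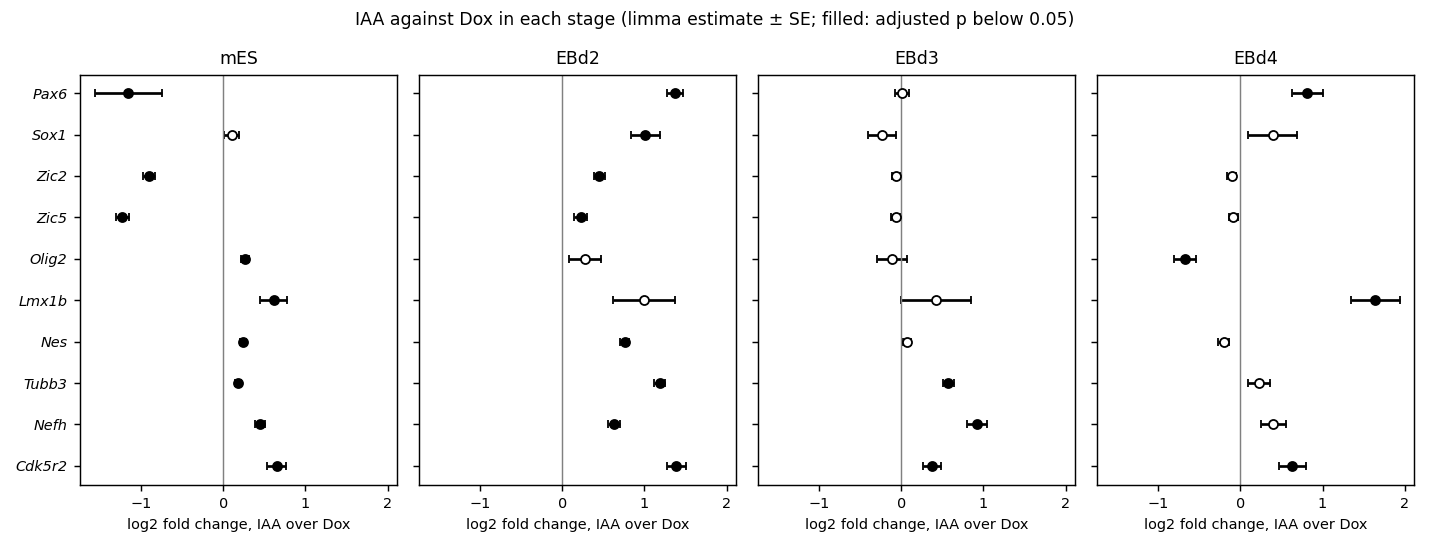
Log2 fold change of IAA over Dox (horizontal axes, same scale in all panels) of the 10 genes in each stage; points are limma estimates from 3 against 3 libraries, bars are 1 SE, and filled points have an adjusted p below 0.05. In mES, Pax6, Zic2 and Zic5 lie left of 0 and the 7 others to the right, Sox1 unfilled, in EBd2 all 10 estimates lie right of 0 and 8 are filled, and in EBd4 Lmx1b has the highest estimate (1.64) and Olig2 the lowest (-0.67).

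Pax6, a master regulator of eye and forebrain progenitors, was nearly silent in mES cells and was the gene with the widest range. In mES it had 16, 6 and 10 reads in the Dox libraries and 3, 3 and 7 in the IAA libraries, which is 14.5, 5.21 and 9.29 against 2.93, 2.64 and 5.27 normalized counts. The highest IAA library lay just above the lowest Dox library. The difference of -1.15 ± 0.41 passed the test (adjusted p = 0.0234), but not when any one of Dox 1, Dox 3, IAA 1 or IAA 2 was left out (-0.84 to -1.13, adjusted p = 0.0608 to 0.187) and not by DESeq2 (adjusted p = 0.101).

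In EBd2, Pax6 stood at 93.1, 103 and 105.5 with Dox and at 249.9, 278 and 256 with IAA. The 2 groups were far apart, and the increase was 2.58-fold (log2 1.37 ± 0.09, adjusted p = 9.47e-10). One day later the Dox libraries held 248, 240.6 and 260.0 and the IAA libraries 254, 236 and 264. No difference was detected in EBd3 (0.01 ± 0.09, adjusted p = 0.966): here the Dox libraries lay at 240.6 to 260.0, overlapping the 249.9 to 278 of the IAA libraries in EBd2. In EBd4 Pax6 was at 115, 106 and 131 with Dox and at 299, 198 and 148 with IAA. All IAA libraries lay above all Dox libraries but were widely spread, and the difference (0.82 ± 0.19, adjusted p = 0.0128) was not called without IAA 1 (0.55, adjusted p = 0.0572), nor without Dox 1, Dox 2 or IAA 2 (adjusted p = 0.0628 to 0.102).

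Sox1, a SOXB1 factor of the neural plate, was present in mES cells at 124, 135 and 127 with Dox and 141, 131 and 144 with IAA. These ranges overlapped, and no difference was detected (0.11 ± 0.09, adjusted p = 0.399). In EBd2 it was at 37.7, 34.0 and 55.3 with Dox and 105, 72.2 and 79.5 with IAA. The groups did not overlap there, and the increase was 2.02-fold (log2 1.01 ± 0.18, adjusted p = 0.00021). No difference was detected in EBd3 (-0.23 ± 0.17, adjusted p = 0.461) or in EBd4 (0.39 ± 0.29, adjusted p = 0.461). In EBd4 the IAA libraries held 106, 47.0 and 40.6, against 38.2, 39.9 and 57.9 with Dox, so a single IAA library was above the range of the Dox libraries.

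Zic2 and Zic5 were the members that fell with IAA in mES and rose in EBd2, together with Pax6. Zic2 had 323, 314 and 322 normalized counts in the mES Dox libraries and 160.2, 164 and 189.7 with IAA. Zic5 had 316, 359.6 and 344 with Dox and 134, 170.0 and 132 with IAA. Both fell in every IAA library below every Dox library, Zic2 by 0.90 ± 0.07 on the log2 scale (adjusted p = 5.94e-13) and Zic5 by 1.23 ± 0.08 (adjusted p = 2.62e-15). In EBd2 Zic2 was at 1859, 1939 and 2294 with Dox and at 2951, 2644 and 2714 with IAA, without overlap, and rose by 0.45 ± 0.06 (adjusted p = 1.33e-05). Zic5 was at 850.2, 875 and 1144 with Dox and at 1120.5, 1073 and 1133 with IAA, where Dox 3 was the highest of all 6 libraries.

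The call for Zic5 in EBd2 (0.23 ± 0.08, adjusted p = 0.0353) was not made by DESeq2 (adjusted p = 0.21) nor without any one of the other 5 libraries (adjusted p = 0.0718 to 0.21), and was 0.36 (adjusted p = 8.16e-07) without Dox 3. In EBd3 and EBd4 the libraries of both genes overlapped between the treatments. No difference was detected there: Zic2 gave -0.07 ± 0.05 and -0.11 ± 0.06, and Zic5 gave -0.07 ± 0.06 and -0.08 ± 0.06 (adjusted p from 0.27 to 0.506). Across the 8 group means the 2 neighbours followed each other closely (Pearson r = 0.99 on the log2 scale, over 8 groups that share no library), and Pax6 followed Zic2 with r = 0.98. These correlations are descriptions, and the mES groups lie far from the EB groups for all 3 genes.

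Olig2, the ventral neural tube factor, fell rather than rose as the stem cells formed EBs. It had 552, 582 and 557 normalized counts in mES with Dox and 642, 709.9 and 684 with IAA, a small increase without overlap (0.27 ± 0.05, adjusted p = 1.58e-05), which was not called when all 24 libraries shared 1 estimate of spread (adjusted p = 0.33). In EBd2 the Dox libraries held 55.3, 69.9 and 129 and the IAA libraries 104, 87.5 and 98.1. Dox 3, the library that stood apart, was the highest of the 6, and no difference was detected (0.28 ± 0.20, adjusted p = 0.328), while without it the difference was 0.62 (adjusted p = 0.000674). Olig2 was the one member called lower with IAA in EBd4, at 278, 275 and 200.2 with Dox and 137, 157 and 175 with IAA (-0.67 ± 0.13, adjusted p = 0.00489). That call was not made without Dox 1 (adjusted p = 0.0623) or without Dox 2 (adjusted p = 0.0599). Olig1, a related basic helix-loop-helix factor, was higher with IAA in mES (0.53), EBd2 (0.73) and EBd3 (0.49) and had -0.28 in EBd4 (adjusted p = 0.0759).

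Lmx1b, a LIM-homeodomain factor, had the lowest level per kilobase of the 10 in every EB group. In mES it was at 44.4, 40.0 and 39.0 with Dox and 58.6, 87.2 and 49.7 with IAA (0.61 ± 0.17, adjusted p = 0.00306), a call that ended without IAA 2 (0.39, adjusted p = 0.0914) and with a shared spread over 24 libraries (adjusted p = 0.235). In EBd2 the Dox libraries held 7.55, 4.73 and 2.87 and the IAA libraries 10.6, 8.12 and 13.3. These ranges did not overlap, but the difference missed the threshold (1.00 ± 0.38, adjusted p = 0.0503) and passed it by edgeR (adjusted p = 0.0386). In EBd4 it was at 17.8, 11.2 and 29.0 with Dox and 74.9, 53.7 and 49.6 with IAA. This was the highest fold change among the 10 genes in any EB stage, 3.12-fold (log2 1.64 ± 0.30, adjusted p = 0.00312), and it stayed called without any single library, with 1.47 (adjusted p = 0.0331) when IAA 1 was left out.

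Among the cytoskeletal genes, Tubb3 rose with IAA in mES, EBd2 and EBd3. In EBd2, where its level with Dox had dropped, the Dox libraries held 336, 329.9 and 294 normalized counts and the IAA libraries 721, 705 and 761. That was a 2.28-fold difference with no overlap (log2 1.19 ± 0.07, adjusted p = 9.31e-11). In EBd3 it was at 698, 776 and 770.4 with Dox and 1217, 1088 and 1039 with IAA (0.57 ± 0.06, adjusted p = 3.58e-07). The mES increase was small (0.18 ± 0.04, adjusted p = 0.00046) and was not called with a spread shared over all 24 libraries (adjusted p = 0.148). In EBd4 the libraries overlapped at 152 to 196 with Dox and 164 to 219 with IAA, and no difference was detected (0.23 ± 0.13, adjusted p = 0.315).

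Nes, the progenitor filament gene, was at 1196, 1174 and 1258 in mES with Dox and 1430.3, 1404 and 1441 with IAA (0.24 ± 0.04, adjusted p = 8.04e-07). In EBd2 it was at 693, 735 and 743 with Dox and 1245, 1228 and 1206 with IAA, a 1.69-fold difference (log2 0.76 ± 0.05, adjusted p = 1.16e-09). The EBd2 IAA libraries thus lay in the range of mES Dox, whereas those with Dox alone lay below it. No difference was detected in EBd3 (0.07 ± 0.05, adjusted p = 0.457). In EBd4 all IAA libraries (1637, 1908 and 1914) lay below all Dox libraries (2197, 1967 and 2109), with -0.20 ± 0.06, which missed the threshold (adjusted p = 0.0546) and passed it in 4 of the alternatives tried.

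Nefh was higher with IAA in the first 3 stages. It was at 239, 242 and 261 in mES with Dox and 338, 345 and 327 with IAA (0.44 ± 0.06, adjusted p = 3.37e-07), and at 466, 457 and 475 in EBd2 with Dox and 788, 752 and 632 with IAA (0.63 ± 0.07, adjusted p = 1.13e-06). In EBd3 the Dox libraries held 149.6, 222 and 169 and the IAA libraries 324, 293 and 409. All 3 IAA libraries were above, by 1.90-fold (log2 0.93 ± 0.12, adjusted p = 6.22e-06). In EBd4 the order of the groups was the same, with 66.2, 68.5 and 60.4 against 96.7, 82.8 and 80.1, but the difference missed the threshold (0.40 ± 0.15, adjusted p = 0.106) and passed it with a spread shared over 24 libraries (adjusted p = 0.0128).

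Cdk5r2 was the one gene of the 10 called higher with IAA in all 4 stages. It was at 61.6, 64.3 and 64.1 in mES with Dox and 107, 100.4 and 92.6 with IAA (0.65 ± 0.12, adjusted p = 2.25e-05). In EBd2 the Dox libraries held 69.6, 69.0 and 73.9 and the IAA libraries 206, 161 and 198, a 2.62-fold difference (log2 1.39 ± 0.11, adjusted p = 1.1e-08). The groups did not overlap in either stage, nor in EBd3, with 158, 138 and 131 against 187, 199 and 169, nor in EBd4, with 115, 149.5 and 167 against 287, 203 and 185. The later differences were smaller against their error, 0.38 ± 0.11 in EBd3 (adjusted p = 0.0264) and 0.63 ± 0.16 in EBd4 (adjusted p = 0.0215). Neither held without Dox 2, IAA 1 or IAA 2 of its stage, nor without Dox 3 in EBd3 and Dox 1 in EBd4 (adjusted p = 0.0659 to 0.155), and the one in EBd3 was not called by DESeq2 (adjusted p = 0.0977) or with a spread shared over 24 libraries (adjusted p = 0.0718). Its partner kinase Cdk5 had -0.18 in mES (adjusted p = 0.0237) and 0.27 in EBd2 (adjusted p = 0.00675), and the related activator Cdk5r1 was not called in any stage; both were named after their values were seen.

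Whether the response to IAA changed from one stage to the next was tested directly, in 1 fit of all 24 libraries. From mES to EBd2 the effect became more positive for 6 of the 10 genes and more negative for none (9.73% and 6.61% of 22019 genes, 16.3% together). Pax6 had the largest shift, 2.52 ± 0.32 on the log2 scale (adjusted p = 3.44e-07), followed by Zic5 with 1.45 ± 0.12 (adjusted p = 7.42e-11) and Zic2 with 1.35 ± 0.10 (adjusted p = 2.06e-12). Tubb3 shifted by 1.01 ± 0.13, Cdk5r2 by 0.74 ± 0.19 and Nes by 0.52 ± 0.08, and Sox1 missed the threshold (0.91 ± 0.32, adjusted p = 0.0504). The Sox1 shift passed by edgeR (adjusted p = 0.0136) and by DESeq2 (adjusted p = 0.0254), so its status depended on the setting.

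From EBd2 to EBd3 the effect became more negative for 6 genes and more positive for none (4.29% and 2.92% of all genes, 7.22% together). These were Pax6 (-1.36 ± 0.32), Sox1 (-1.24 ± 0.32), Cdk5r2 (-1.01 ± 0.19), Nes (-0.69 ± 0.08), Tubb3 (-0.61 ± 0.13) and Zic2 (-0.52 ± 0.10), with adjusted p from 2.42e-07 to 0.0135. The Sox1 call ended without EBd2 Dox 2 (-1.10, adjusted p = 0.0506) or without EBd2 IAA 1 (-1.09, adjusted p = 0.053). Both sets of shifts share the 6 EBd2 libraries, so an unusual value in EBd2 would enter both with opposite sign. Nefh was not called in any of the 3 comparisons of stages. From EBd3 to EBd4 Nes alone was called, with a lower effect (-0.27 ± 0.08, adjusted p = 0.0311, against 2.23% of genes called lower and 2.71% higher, 4.93% together). That call ended without a filter on low values (adjusted p = 0.0627) and without any one of EBd3 Dox 2, EBd3 IAA 1, EBd3 IAA 2, EBd4 Dox 1 or EBd4 IAA 1 (-0.20 to -0.27, adjusted p = 0.0604 to 0.11). The other 9 genes missed the threshold there, and Nefh came nearest (-0.52 ± 0.16, adjusted p = 0.0516).

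The course of the 10 genes without IAA was read from the 12 Dox libraries, all of which carried the degron and received doxycycline. From mES to EBd2, Pax6 (log2 step 3.35 ± 0.21), Zic2 (2.66 ± 0.06), Zic5 (1.48 ± 0.08) and Nefh (0.91 ± 0.11) rose, and Lmx1b (-2.87 ± 0.39), Olig2 (-2.81 ± 0.20), Tubb3 (-1.64 ± 0.08), Sox1 (-1.61 ± 0.18) and Nes (-0.74 ± 0.05) fell. So 4 rose and 5 fell, where 35% of all 22141 genes tested rose and 29.1% fell, 64.1% in all. From EBd2 to EBd3, 7 rose and 1 fell (22% and 24.4% of all genes, 46.4% together): Pax6 and Tubb3 rose most (1.30 ± 0.21 and 1.22 ± 0.08), and Nefh fell (-1.39 ± 0.11). From EBd3 to EBd4, 4 rose and 4 fell (16.1% and 17.6%, 33.7% together). Olig2 rose by 1.92 ± 0.20 and Nes by 0.65 ± 0.05. Lmx1b was called higher (1.16 ± 0.39, adjusted p = 0.0241), but its groups overlapped and the call ended without a filter (adjusted p = 0.0529) and without EBd3 Dox 2, EBd3 Dox 3 or EBd4 Dox 3 (0.81 to 1.15, adjusted p = 0.0594 to 0.152). Tubb3 fell by 2.17 ± 0.08, the steepest single loss among the 10 after EBd2.

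With IAA the steps had another size. From mES to EBd2 Pax6 rose by 5.87 ± 0.20, Zic2 by 4.01 ± 0.07 and Zic5 by 2.93 ± 0.08, and 5 of 10 genes rose while 5 fell (34.3% and 29.6% of 21702 genes, 63.9% together). From EBd2 to EBd3, 2 rose and 3 fell (20.3% and 22.3%, 42.6% together): Tubb3 and Nes rose (0.61 ± 0.08 and 0.18 ± 0.05), and Pax6, which rose at that step with Dox, had -0.05 ± 0.20 (adjusted p = 0.862). Zic2 fell by 0.29 ± 0.07 in the IAA libraries at this step and rose by 0.22 ± 0.06 in the Dox libraries. From EBd3 to EBd4, 4 rose and 2 fell (17.6% and 18.3%, 35.9% together), with Lmx1b at 2.38 ± 0.29 and Tubb3 at -2.51 ± 0.08. Steps that follow each other share the libraries of the stage between them.

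In EBd4 the libraries within each treatment differed, and some of the 10 genes differed with them. Pax6, Sox1, Cdk5r2, Lmx1b and Nefh were highest in IAA 1 and lowest in IAA 3. Olig2 and Nes ran the other way over the same libraries, lowest in IAA 1 and highest in IAA 3, and Tubb3, Zic2 and Zic5 followed neither order. Of the 10 genes 6 were highest in IAA 1, as were 16 of 51 neural list genes and 39.5% of all genes. The summed markers of primitive streak and mesoderm, ran the other way: 180.1 in IAA 1, 661 in IAA 2 and 2516 in IAA 3, against 3489, 2818 and 1481 in the Dox libraries. T (brachyury), the defining streak factor, was at 39.8, 322 and 1556 with IAA and at 2091, 1602 and 826 with Dox. The 4 genes plotted by library were chosen after their values were seen. Among the Dox libraries, Dox 3 had the lowest streak sum and the highest Pax6, Sox1, Cdk5r2 and Lmx1b. Nefh, however, was lowest in Dox 3 (60.4, against 66.2 in Dox 1 and 68.5 in Dox 2). Of the 13 streak and mesoderm genes, 0 rose and 3 fell with IAA in EBd4 (4.69% and 5.57% of all genes), with a median of -1.01. T itself missed the threshold (-2.36 ± 0.82, adjusted p = 0.0847). The part of the streak and mesoderm genes in the EBd4 values of the neural genes was not tested. In EBd3, by contrast, the streak sums were at 174.5 to 187 with Dox and 147.9 to 167 with IAA.

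**Figure D3:**
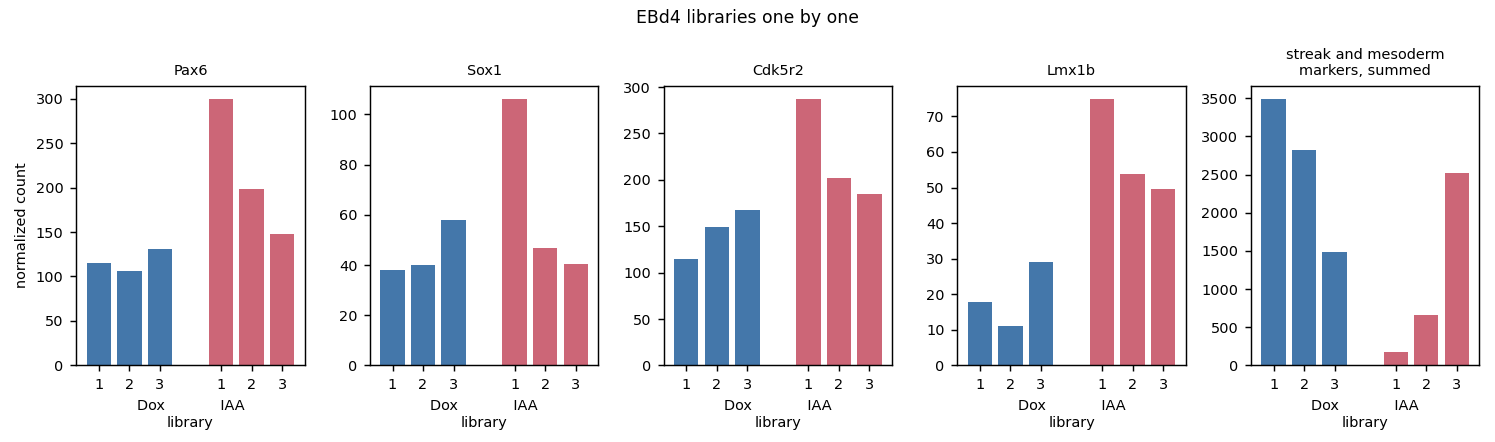
Normalized counts (vertical axes from 0, own scale per panel) of Pax6, Sox1, Cdk5r2 and Lmx1b and the summed streak and mesoderm markers in each EBd4 library (bars; Dox blue, IAA red; no error, since each bar is 1 library). The 4 genes are highest in IAA 1, where the streak sum is lowest at 180.1, and the streak sum of IAA 3 (2516) lies within the range of the Dox libraries.

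Markers of other cell types moved as well. Beside the counts below, 13.4% of all genes were called higher and 16.7% lower in EBd2. The shares were 17.3% and 20.1% in mES, and 4.69% and 5.57% in EBd4. In EBd2 with IAA, 6 of 8 formative epiblast markers rose and 1 fell (sums of 46124 to 47718, against 35120 to 36067 with Dox), and 0 of 10 naive markers rose and 6 fell (2012 to 2252, against 2837 to 3233). In mES with IAA, 8 of 10 naive markers rose and 0 fell (55379.5 to 56992, against 46618 to 48735), and the formative sum was 1303 to 1473, against 2714 to 2877. That sum fell through 3 of its 7 tested genes, the DNA methyltransferases Dnmt3a and Dnmt3b and the factor Sox4, while Otx2 and Pou3f1 were higher and the median of the list was -0.08. Zic2, Zic5 and Pax6 were lower with IAA in mES and higher in EBd2, as the formative sum was, but the formative list as a whole went both ways in mES. Streak and mesoderm sums were also lower with IAA in EBd2 (192.5 to 213, against 291.8 to 324). Neural crest sums were 788 to 909 with IAA in EBd2 and 675 to 766 with Dox, and 1 of 8 genes was called each way. Endoderm sums were at 176 to 193 with Dox and 205 to 225 with IAA in EBd2, with Ttr at 0 in all 6 libraries, and 1 of 6 genes was called higher. Surface ectoderm and trophoblast sums lay at 494 to 547 with IAA and 367 to 415 with Dox in EBd2, where 2 of 7 genes were called higher and 1 lower. Fibroblast sums lay at 107 to 118 with IAA and 169 to 217 with Dox in EBd2, where 0 of 5 genes were called higher and 3 lower. In EBd4 surface ectoderm and trophoblast sums did not overlap either (3738 to 4674, against 2340.5 to 3003, with IAA above and 2 of 5 genes called higher and 0 lower). Of 4 fibroblast genes tested there 0 were called higher and 1 lower. Neural crest sums (398 to 479 with IAA, 530 to 552 with Dox) and endoderm sums (318 to 328, against 383 to 496) were lower with IAA in EBd4. Formative sums were lower too (23226 to 24148, against 24339 to 26042). In each of these lists 0 genes were called higher and 1 lower. Of 10 naive markers, 6 were called higher with IAA in EBd4 and 1 lower, while their sums overlapped (5365 to 5834, against 5757 to 5959). The part of these marker lists in the values of the 10 genes was not tested.

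The other genes of the neural lists did not follow the 10 genes as a block. Beside them, 97 other genes of 9 lists were read (neural plate and progenitor factors, radial glia genes, the Zic family, proneural factors, neuronal cytoskeleton, neuronal RNA-binding and synaptic genes, ventral neural tube, midbrain-hindbrain boundary, and the REST complex). In mES 13 of the 74 tested were higher with IAA and 23 lower (17.6% and 31.1%). In EBd2 it was 22 and 16 of 92 (23.9% and 17.4%), in EBd3 6 and 11 of 90 (6.67% and 12.2%), and in EBd4 1 and 12 of 84 (1.19% and 14.3%). Of all genes tested, 17.3% were called higher and 20.1% lower in mES, and 13.4% and 16.7% in EBd2. In EBd3 it was 4.22% and 6.32%, and in EBd4 4.69% and 5.57%. The median log2 fold changes of the neural list genes were -0.04, 0.00, -0.02 and -0.08 in the 4 stages. These lists are not confined to neural cells. Otx2, Foxa2 and Pdgfra were also markers of other cell types here, and the REST complex acts outside neurons.

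**Figure D4:**
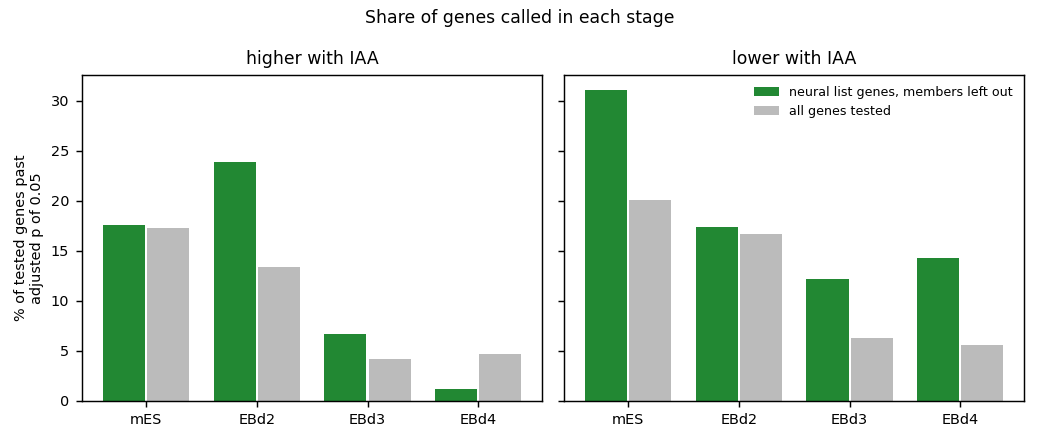
Share of tested genes (vertical axis, percent) called higher (left panel) or lower (right panel) with IAA in each stage, for the neural list genes without the 10 members (green; 74 to 92 tested per stage) and for all genes tested (grey). In EBd2 23.9% of the neural list genes and 13.4% of all genes are called higher, and in EBd4 1.19% and 4.69%.

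The progenitor lists came closest to Pax6, Sox1 and Nes in EBd2. Of 14 other neural plate and progenitor factors tested there, 5 were higher with IAA and 0 lower (13.4% and 16.7% of all genes). Sox2, which with Sox1 and Sox3 forms the SOXB1 group, was at 1481, 1507 and 1622 with Dox and 2499, 2427 and 2427 with IAA (0.67 ± 0.05, adjusted p = 1.58e-09), Sox3 rose by 0.66 ± 0.08, and Meis2 by 0.46 ± 0.09. Of 9 other radial glia genes 4 were higher and 0 lower in EBd2, among them Vim, the filament partner of nestin (0.54 ± 0.06), and Msi1 (0.52 ± 0.14). In mES 5 of the 8 radial glia genes tested were lower and 0 higher (20.1% and 17.3% of all genes). Vim had -0.52 ± 0.03, Prom1 -0.43 ± 0.08 and Msi1 -0.38 ± 0.05. Nes differed from them there, as it rose. In EBd4 Sox2 was still higher with IAA (0.59 ± 0.08), and Vim was lower (-0.38 ± 0.11, adjusted p = 0.0427).

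The neuronal lists did not match Tubb3, Nefh and Cdk5r2. Of 12 other genes of the neuronal cytoskeleton and the Cdk5 activators tested in mES, 1 was higher with IAA and 9 were lower (17.3% and 20.1% of all genes). Of 13 tested in EBd2, 3 were higher and 7 lower (13.4% and 16.7% of all genes). Mapt (tau) rose in mES (0.52 ± 0.04) and fell in EBd2 (-0.85 ± 0.26), while Gap43, a growth cone protein, fell in both (-2.21 ± 0.22 and -0.62 ± 0.14) and so did Stmn2 (-0.23 ± 0.03 and -0.33 ± 0.08). The light and medium neurofilament subunits, chosen after their values were seen, went against the heavy one: Nefl had -0.50 ± 0.10 in mES and -0.32 ± 0.08 in EBd2, and Nefm had -0.82 ± 0.20 and -0.31 ± 0.10, all past the threshold. Dcx (doublecortin), the marker of migrating young neurons, was chosen in the same way. It had 23.5, 30.2 and 21.5 normalized counts in EBd2 with Dox and 4.41, 4.51 and 3.31 with IAA, and fell by 2.35 ± 0.31 on the log2 scale.

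Most proneural genes were not called. Of 13 proneural and neuronal factors tested in EBd2, 2 were higher with IAA and 1 was lower, beside 13.4% and 16.7% of all genes. The lower one was Neurod1, at 323, 337 and 299 with Dox (-0.68 ± 0.09, adjusted p = 3.69e-06). Pou4f1, a sensory neuron factor, rose in mES and EBd2 (0.69 ± 0.11 and 0.54 ± 0.12), and Ebf1 fell in mES (-0.64 ± 0.11). Among the RNA-binding and synaptic genes, Syn1, a synaptic vesicle protein, rose in EBd2 (0.59 ± 0.10). Elavl4 fell in mES (-1.82 ± 0.27). Of 12 other ventral neural tube and oligodendrocyte genes, 1 was higher in EBd2 and 0 lower (13.4% and 16.7% of all genes). In mES Nkx6-2 rose (0.74 ± 0.20) and Mbp, a myelin protein, fell (-0.71 ± 0.16).

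Around Lmx1b, 10 other genes of the midbrain-hindbrain boundary and the LIM-homeodomain factors were tested in EBd2. Of these, 2 were higher with IAA and 4 lower (13.4% and 16.7% of all genes). Gbx2, which sets the boundary on the hindbrain side, was at 47.0, 46.3 and 35.2 with Dox and 145.7, 124.5 and 121 with IAA (1.59 ± 0.14, adjusted p = 3.62e-08). Pax8 fell (-1.98 ± 0.21). In EBd4, where Lmx1b rose, 0 of the 10 others were higher and 1 was lower (4.69% and 5.57% of all genes), and Gbx2 had 0.06 ± 0.31. Ldb1, the cofactor of LIM-homeodomain proteins, was higher in mES (0.28 ± 0.03).

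Of the other Zic genes, Zic1 was low, with 21.8, 25.5 and 23.7 normalized counts with Dox and 29.1, 30.7 and 26.5 with IAA in EBd2, and no difference was detected there (0.27 ± 0.21, adjusted p = 0.353). Zic4 was at 3.82 or below in all 24 libraries. Neither was called in any stage in which it was tested.

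Rest encodes the repressor that keeps neuronal genes off outside neurons. With Dox it was at 4689.9, 4902 and 4763 in mES and at 1818, 1794 and 1774 in EBd4. With IAA it was slightly higher in mES (0.08) and lower in EBd2 (-0.25 ± 0.04) and EBd3 (-0.21), and was not called in EBd4 (0.06). Of the 8 genes of its complex tested in EBd2, 3 were higher with IAA and 2 lower (13.4% and 16.7% of all genes). Rcor2 had -0.24 ± 0.06 and Sin3a 0.21 ± 0.05. The part of Rest and its complex in the values of Tubb3 and Cdk5r2 was not tested.

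Genes whose course over the 8 group means was most like that of a member were sought among 11936 genes. The nearest to Pax6 were Fzd7 and Slc40a1 (Pearson r = 0.99 for both, on the log2 scale), to Zic2 Enho and Pcdh1 (0.997 and 0.996), to Zic5 Cyp27a1 and Smo (0.998 and 0.996) and to Nefh Gcc1 and Clptm1l (0.99 and 0.99). For Olig2 they were Tle1 and Ext2 (0.99 and 0.99), for Nes Ctdsp1 and Zfp758 (0.99 and 0.98), for Lmx1b Rad51c and Arnt (0.98 and 0.98) and for Tubb3 Tuba1c, another tubulin, and Uso1 (0.98 and 0.98). Sox1 and Cdk5r2 had the least similar neighbours, Snap29 and Unc50 (0.96 and 0.96) and Cnnm3 and Atxn2 (0.97 and 0.97). The values are descriptions over 8 points, of which the mES groups lie far from the EB groups for most of these genes. Among the members, Pax6 ran against Olig2 (r = -0.90) and Zic2 against Sox1 (r = -0.84).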

How the data were processed

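Total RNA was sequenced on an Illumina instrument. Per the submitters' processing notes, the tools were STAR 2.5.3a as aligner (genome build mm10), featureCounts 1.5.2 and DESeq2. The annotation version and the strand setting are not given in the sources used here. The authors deposited a normalized signal per gene, counts divided by 1 size factor per library, for 35742 genes in 6 libraries per stage. The log2 fold changes, their errors and the adjusted p-values in the authors' deposited tables were read but are not printed. Dividing by the smallest step gave whole reads for 100% of values (tolerance 1e-06). Of all genes, 14339 had no symbol and stayed in the tests.

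IAA was compared with Dox within each stage, neighbouring stages within each treatment, and the IAA effect between neighbouring stages, with limma 3.58.1 (R 4.3.3, trended, moderated, two-sided) on log2(value + 1) of genes whose mean was 1 or more, which understates the change of low genes. P-values were adjusted by Benjamini-Hochberg over all genes tested, with a threshold of 0.05. Alternatives were 0.5 or 5 added, no filter, a mean of at least 10, TMM scaling, edgeR 4.0.16 and DESeq2 1.42.0 on recovered reads, a replicate block, 1 fit of all 24 libraries, and each library left out. The scripts were tested on simulated data. Other genes were named by a rule: per neural list, up to 3 with the smallest adjusted p for IAA in any stage, plus Zic genes, Rest and the 2 genes most like each member. The members, lists and rule were chosen with earlier results of these data known. Results for some of the genes this rule names are not reported here.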

Additional observations from a re-analysis of the deposited data

Results flagged for a closer look

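The response to IAA differed between stages for several of the 10 genes, by a direct test of the difference (limma, 24 libraries in 1 fit, adjusted over 22019 genes, 3 libraries per group). From mES to EBd2 the log2 effect shifted upwards by 2.52 for Pax6, 1.45 for Zic5, 1.35 for Zic2, 1.01 for Tubb3, 0.74 for Cdk5r2 and 0.52 for Nes. From EBd2 to EBd3 it shifted by -1.36 for Pax6, -1.24 for Sox1, -1.01 for Cdk5r2, -0.69 for Nes, -0.61 for Tubb3 and -0.52 for Zic2. From EBd3 to EBd4 it shifted by -0.27 for Nes, a call that ended without any one of 5 of the 12 libraries of these stages (adjusted p = 0.0604 to 0.11). Pax6 in mES rests on 3 to 16 reads per library, so its first shift is measured from a low level. Both earlier sets of shifts share the EBd2 libraries, including Dox 3, the library that stood apart from its group. The Sox1 call from EBd2 to EBd3 ended without EBd2 Dox 2 (adjusted p = 0.0506) or without EBd2 IAA 1 (adjusted p = 0.053).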

How the results depend on the processing

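Under the alternatives, 2095 values of the 10 genes were recomputed. Of these, 2005 kept their side of the threshold, 54 were no longer called and 36 became called. Among values called in the main or the alternative setting, 0 changed direction. Changes of direction in values called in neither were not counted. For example, Sox1 in EBd4 went from 0.39 to -0.03 without IAA 1. The number of the 10 genes called, with each library left out in turn, ran from 7 to 9 in mES, 7 to 9 in EBd2, 2 to 3 in EBd3 and 1 to 5 in EBd4, where it was 1 without Dox 1 or Dox 2 and 2 without IAA 1 or IAA 2. It ran from 9 to 9, 8 to 9 and 7 to 7 for the Dox steps, from 9 to 10, 5 to 6 and 5 to 7 for the IAA steps, and from 6 to 7, 5 to 8 and 0 to 2 for the differences of the IAA effect. The last of these, 1 gene from EBd3 to EBd4, became 2 with 5 added, with a mean of at least 10, by edgeR and by DESeq2, and 0 without a filter. The cause was not tested. Replicate numbers did not pair the samples (same-number correlations from -0.18 to 0.094). With the numbers as a replicate block the counts were 9, 8, 3 and 3 for the 4 stages, 9, 8 and 8 for the Dox steps, 10, 6 and 6 for the IAA steps and 7, 6 and 1 for the differences. Cdk5r2 in EBd4 was not called with it (0.63, adjusted p = 0.0622). Over all genes, EBd3 had 2245 calls and 1295 by DESeq2. EBd4 had 2173, with 1365 under the block and 3425 with all 24 libraries in 1 fit, and 776 to 2039 with 1 library left out. The difference from EBd3 to EBd4 had 1086 calls and 721 without a filter. Leaving 1 library out gave 1202 to 2613 calls in EBd3 and 552 to 1358 for that difference. Depth limits Pax6 in mES and Lmx1b in EBd2 and EBd3 most.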
